A study of Mus musculus with 16 samples.

Results

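Antigen presentation in macrophages was followed through 10 genes chosen by symbol. They were the MHC class II chains H2-Aa, H2-Ab1 and H2-Eb1, the invariant chain gene Cd74, the class II transactivator gene Ciita, the class I genes B2m, H2-K1 and H2-D1, the peptide transporter gene Tap1 and the costimulatory ligand gene Cd86. All 10 were found among the 46320 genes of the count table, and 10 of 10 were among the 15610 genes that passed the filter on low counts. With thrombin-activated platelets, against vehicle, Cd86 was 2.24-fold higher and Ciita was 2.52-fold lower, while the class II chain genes and Cd74 differed by less than the spread between libraries.

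The libraries came from bone marrow-derived macrophages of C57BL6/J mice, which are marrow cells grown for 7 days with L929 cell medium as the source of the growth factor M-CSF. The cells of all 16 libraries, vehicle included, were first starved for 4 hours in 0.5% serum and then treated for 4 hours with thrombin-activated platelets, resting platelets, thrombin alone or PBS as the vehicle, with 4 libraries in each group. The platelets were purified from blood of the same strain, and the activated platelet cultures also received thrombin. The protocol gives thrombin at 0.01 U/mL while the labels of the thrombin group give 0.1 U/mL, and those of the activated platelet group give no dose, so comparisons of these groups and the interaction assume 1 dose.

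MHC class II molecules are dimers of an alpha and a beta chain that show peptides from engulfed material to CD4+ T cells. Ciita is the master regulator of their transcription, and the invariant chain guides new dimers to the compartment where peptides are loaded. Class I molecules show peptides from inside the cell to CD8+ T cells, and a T cell that recognises either complex also needs a costimulatory signal from ligands such as CD86 and CD80. Macrophages derived with M-CSF carry little class II until interferon gamma induces Ciita.

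Promoter sequence is shown for a pair of class II genes and a pair of class I genes, so that their upstream letters can be read side by side. RefSeq promoter windows were held for 6 of the 10 genes (H2-Aa, H2-Eb1, B2m, H2-K1, H2-D1 and Tap1). Each line gives the 150 bases before the transcription start, 5′ to 3′ on the strand of the gene, in GRCm38.p6. They lie at chr17:34287824-34287973 (minus strand) for H2-Aa, chr17:34305717-34305866 (plus strand) for H2-Eb1, chr17:34000348-34000497 (minus strand) for the first start of H2-K1 and chr17:35262944-35263093 (plus strand) for H2-D1. Capitals mark matches to CTGATTGG, the core of the Y box bound by NF-Y, to TGACGTCA, the cAMP response element, and to GAANNGAAA, a pair of interferon response half-sites, each on either strand.
H2-Aa: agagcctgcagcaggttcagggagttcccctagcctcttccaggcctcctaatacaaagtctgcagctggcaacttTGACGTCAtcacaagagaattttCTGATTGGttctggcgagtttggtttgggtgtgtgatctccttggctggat
H2-Eb1: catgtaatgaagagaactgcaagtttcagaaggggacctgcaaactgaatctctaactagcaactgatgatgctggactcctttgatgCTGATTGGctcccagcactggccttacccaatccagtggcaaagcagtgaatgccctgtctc
H2-K1: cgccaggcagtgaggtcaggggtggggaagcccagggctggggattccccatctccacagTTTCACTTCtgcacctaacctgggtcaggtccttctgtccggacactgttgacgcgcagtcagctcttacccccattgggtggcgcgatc
H2-D1: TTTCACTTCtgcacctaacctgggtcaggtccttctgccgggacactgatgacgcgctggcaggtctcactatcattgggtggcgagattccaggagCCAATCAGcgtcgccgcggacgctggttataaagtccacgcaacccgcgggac

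The motifs were picked after the sequences had been seen, and a match describes letters and not a bound site. In the class II windows CTGATTGG began 51 bases before the start of H2-Aa and 62 bases before that of H2-Eb1, and only H2-Aa held TGACGTCA, 74 bases before its start. In the class I windows GAANNGAAA was read on the opposite strand, 90 bases before the start of H2-K1 and 150 bases before that of H2-D1, and H2-D1 also held CCAATCAG, the reverse of CTGATTGG, 53 bases before its start. The printed H2-K1 and H2-D1 windows share an unbroken run of 37 bases that begins with this interferon match. Of 32851 mouse promoter windows, searched over the 250 bases before the start, 3.83% held CTGATTGG, 1.55% held TGACGTCA and 6.31% held GAANNGAAA. The letters ATTGG, which are part of CTGATTGG, were held by 33.8%.

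Depth was 28.0 to 30.6 M counts (M for mega) in activated platelet libraries, 24.9 to 26.4 M counts in resting platelet, 23.1 to 26.7 M counts in thrombin and 22.6 to 27.7 M counts in vehicle libraries. Libraries with the same replicate number deviated together in all 4 groups, so the fit with the number as a block is given beside calls of the 10 genes that it changes and beside the counts of the lists. The number 1 libraries stood apart, with Ddx3y, a Y-linked gene, at 85.0 to 93.1 CPM (counts over the TMM-scaled library size in M) against at most 0.269 CPM in numbers 2 to 4, and Xist at no more than 1.06 CPM against 1054.6 to 1291 CPM. Of the 8 macrophage markers all passed the filter, and their summed level was 16252 to 21140 CPM in activated platelet and 16866 to 21230 CPM in vehicle libraries. Most of this sum was Lyz2, at 10258 to 14555 CPM in all libraries. Against vehicle the mannose receptor gene Mrc1 (log2 fold change -0.57, edgeR adjusted p = 0.0334) and Mertk (-0.42, adjusted p = 0.0338), whose product binds apoptotic cells, fell with activated platelets, and the Fc receptor gene Fcgr1 rose (0.38, adjusted p = 2.07e-05). The part of this in the levels of the 10 genes was not tested. By Ddx3y and Xist the number 1 libraries came from male cells and those of numbers 2 to 4 from female cells. Number 1 thus had another donor than the rest, and its sex cannot be told apart from its other differences. The labels do not say whether the replicates were otherwise separate animals or cultures. The p-values therefore measure the spread between these libraries, which may be partly technical.

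The genes of the class II molecule did not differ between treatments beyond the spread of the libraries. H2-Aa, the alpha chain of I-A (chromosome 17, 34501718 to 34506797, GRCm39, minus strand), had 13.5, 19.2, 35.7 and 24.1 CPM in activated platelet, 15.9, 20.2, 32.2 and 24.9 CPM in resting platelet, 15.6, 19.8, 31.5 and 26.9 CPM in thrombin and 18.0, 19.0, 29.2 and 25.5 CPM in vehicle libraries 1 to 4. In every group library 1 was lowest and library 3 highest, and the groups overlapped throughout. H2-Ab1, its beta chain (chromosome 17, 34482201 to 34488392, plus strand), had 12.0, 18.1, 31.8 and 23.9 CPM in activated platelet, 11.6, 17.2, 26.7 and 21.4 CPM in resting platelet, 13.4, 19.5, 26.1 and 23.7 CPM in thrombin and 17.6, 18.3, 27.2 and 22.7 CPM in vehicle libraries. The order of the numbers was the same as for H2-Aa.

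H2-Eb1, the beta chain of I-E (chromosome 17, 34524841 to 34535648, plus strand), had 6.10, 8.98, 17.0 and 12.7 CPM in activated platelet, 6.78, 7.87, 17.7 and 15.2 CPM in resting platelet, 6.18, 8.71, 14.7 and 12.9 CPM in thrombin and 8.91, 9.32, 15.3 and 13.2 CPM in vehicle libraries. In Mus musculus C57BL/6 the I-E alpha chain gene is defective, so this beta chain has no surface partner. Cd74 (chromosome 18, 60936921 to 60945724, plus strand) had 76.1, 112, 138 and 108 CPM in activated platelet, 74.2, 101, 136 and 113 CPM in resting platelet, 75.8, 106, 134 and 106 CPM in thrombin and 93.6, 111, 125 and 108 CPM in vehicle libraries. Cd74 too was lowest in library 1 and highest in library 3 of every group.

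The log2 fold changes of activated platelets against vehicle were small beside their intervals. With the replicate block the 95% interval of the log2 difference ran from -0.17 to 0.12 for H2-Aa, from -0.22 to 0.14 for H2-Ab1, from -0.28 to 0.09 for H2-Eb1 and from -0.16 to 0.08 for Cd74. In the same order, the differences were -0.41, -0.55, -0.54 and -0.30 within number 1. They were 0.29, 0.22, 0.15 and 0.14 within number 3, with numbers 2 and 4 between. Within number 1 all 4 genes were also below vehicle with resting platelets and with thrombin. Without the number 1 libraries and the block, the log2 fold changes were 0.10, 0.12, 0.04 and 0.06 (edgeR adjusted p of 0.778 or more). None of these 4 genes passed in any of the 6 comparisons, with adjusted p of 0.772 or more without the block and 0.155 or more with it (edgeR quasi-likelihood test, Benjamini-Hochberg adjustment over all 15610 genes). The lowest of these, 0.155, was that of H2-Ab1 with resting platelets, which was lower than vehicle within each of the 4 numbers (log2 difference -0.18, interval from -0.37 to 0.0026, with the block).

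The replicate number moved these genes more than the treatment did. Over mean log2 levels, the 4 numbers spanned 1.03 for H2-Aa, 1.04 for H2-Ab1, 1.21 for H2-Eb1 and 0.74 for Cd74, whereas the 4 treatments spanned 0.06, 0.20, 0.18 and 0.08 in the same order. For Cd86 the order was turned round, with a span of 0.62 over numbers and 1.18 over treatments. Ciita varied along both, by 1.11 over numbers and 1.41 over treatments. It shared with the class II genes the lowest mean in number 1 and the highest in number 3. Number 1 is the male set, and the part of sex in the spans over numbers was not tested.

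**Figure D1:**
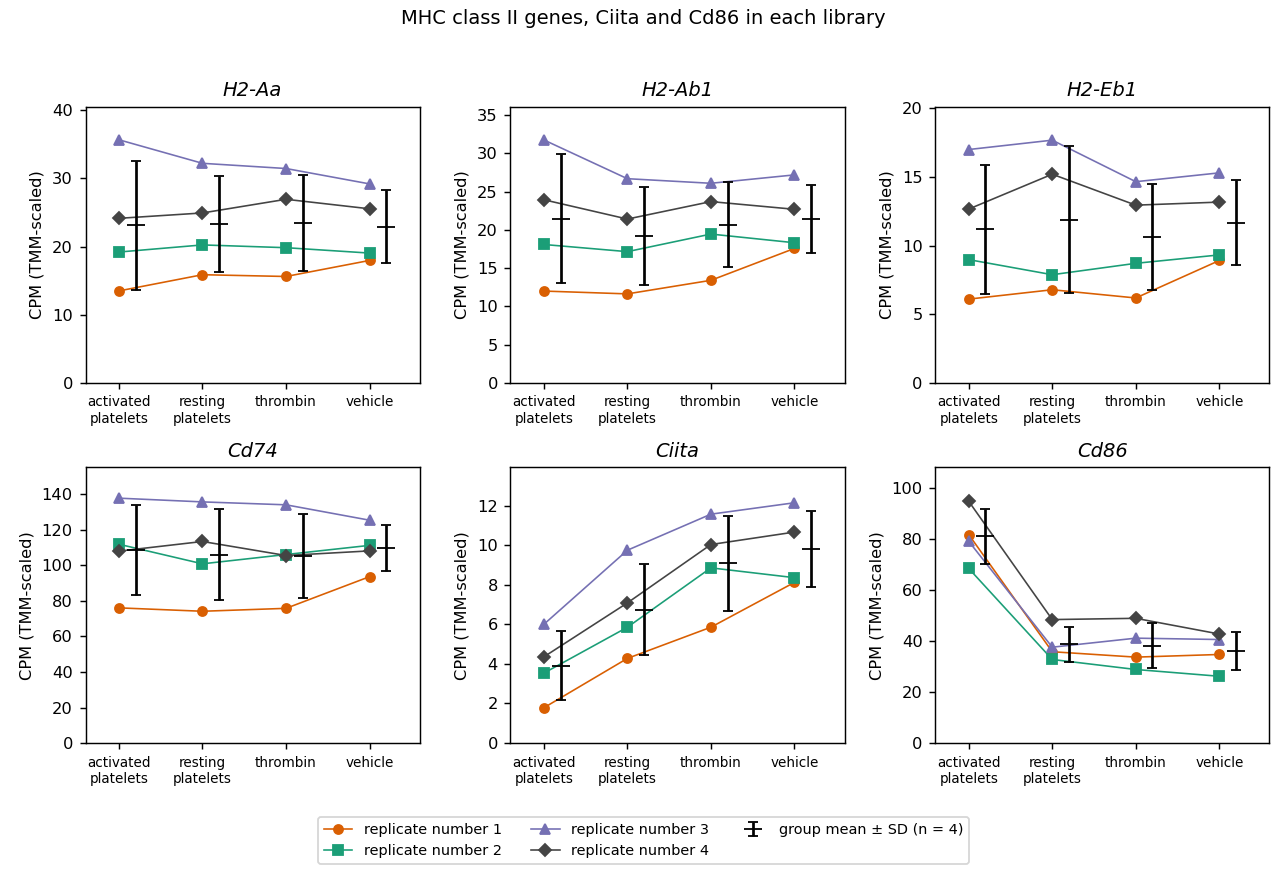
Level of each class II gene, Ciita and Cd86 (vertical axis, TMM-scaled CPM from 0) in the 16 libraries by treatment. Each line joins the libraries of 1 replicate number and the bars show the mean and SD of 4 libraries. The lines of the class II genes keep number 1 lowest and number 3 highest in every treatment, those of Ciita drop to 1.78 to 6.00 CPM with activated platelets, and those of Cd86 climb there to 68.6 to 95 CPM.

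Ciita fell with activated platelets. The gene (chromosome 16, 10297877 to 10348928, plus strand) had 1.78, 3.53, 6.00 and 4.36 CPM in activated platelet, 4.28, 5.85, 9.75 and 7.09 CPM in resting platelet, 5.86, 8.86, 11.6 and 10.0 CPM in thrombin and 8.12, 8.36, 12.2 and 10.7 CPM in vehicle libraries 1 to 4. All 4 activated platelet libraries lay below all 4 vehicle libraries, and resting platelet libraries lay between them within each number. These levels rest on 451 counts over the activated platelet group and 1042 over the vehicle group.

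Against vehicle the log2 fold change of Ciita with activated platelets was -1.33 ± 0.31 (SE, n = 4), with edgeR adjusted p = 0.00443 and, without the number 1 libraries, -1.16 with adjusted p = 0.00493. Against thrombin alone Ciita was 2.32-fold lower with activated platelets (adjusted p = 0.00843), lower within each of the 4 numbers though the groups overlap. That call ended without number 2 (adjusted p = 0.0718) or number 4 (0.0641). Against resting platelets the log2 fold change was -0.79 and did not pass (adjusted p = 0.103), but passed with the block (adjusted p = 2.11e-05). It also passed without activated platelet library 3 (adjusted p = 0.0403).

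Resting platelets against vehicle gave a log2 fold change of -0.54 for Ciita, lower within all 4 numbers, which did not pass (adjusted p = 0.342) and passed with the block (adjusted p = 0.000657). Thrombin against vehicle gave -0.12 (adjusted p = 0.944), lower in 3 of 4 numbers. The interaction, taken as what thrombin changed in the presence of platelets minus what it changed in their absence, was -0.67 for Ciita (adjusted p = 0.365, and 0.00301 with the block).

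Ciita is also transcribed in dendritic cells and B cells, so markers of both were read beside it. The 10 dendritic cell markers summed to 88.8 to 143 CPM in activated platelet, 118 to 187 CPM in resting platelet, 107 to 199 CPM in thrombin and 112 to 201 CPM in vehicle libraries. Nearly all of this was Itgax, which macrophages also express, at 84.2 to 195 CPM, while Flt3, Ccr7, Cd209a, Xcr1 and Siglech stayed at or below 0.348 CPM. Of the 5 dendritic cell markers tested, Batf3 (log2 fold change -2.29, edgeR adjusted p = 3.22e-06) and Clec10a (-1.51, adjusted p = 0.00159) fell with activated platelets against vehicle and 0 rose. Both were low, at 0.377 to 3.04 CPM for Batf3 and 0.624 to 3.64 CPM for Clec10a. Itgax (-0.30, adjusted p = 0.405), Zbtb46 (-0.09, adjusted p = 0.798) and Clec9a (0.05, adjusted p = 0.961) did not pass. In this comparison 13.6% of all tested genes were lower. With resting platelets against vehicle Batf3 also fell (-0.80, edgeR adjusted p = 0.0477), where 1.32% of all genes were lower. Clec10a did not pass there (-0.66, adjusted p = 0.226). The interaction was -1.29 for Batf3 (adjusted p = 0.0184) and -0.69 for Clec10a (adjusted p = 0.341).

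The 7 B cell markers summed to 21.3 to 30.8 CPM in activated platelet, 30.2 to 46.8 CPM in resting platelet, 33.6 to 52.1 CPM in thrombin and 39.6 to 50.6 CPM in vehicle libraries. Of the 3 tested, Ighm fell with activated platelets against vehicle (log2 fold change -2.07, edgeR adjusted p = 0.000111), where 13.6% of all tested genes were lower. Ighm had 2.91 to 25.4 CPM over the libraries. Cd22, at 12.0 to 24.1 CPM (adjusted p = 0.813), and Cd79b, at 3.41 to 7.77 CPM (adjusted p = 0.213), did not pass, and these 3 genes made up most of the sum. The defining markers Cd79a, Ms4a1 and Pax5 were at most 0.143 CPM in any library. The part of these cells in the level of Ciita was not tested. In bulk libraries fewer cells of a type and less RNA per cell cannot be told apart.

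Cd86, a ligand of the T cell receptors CD28 and CTLA4, rose with activated platelets against each other group. The gene (chromosome 16, 36389318 to 36486439, minus strand) had 81.9, 68.6, 79.2 and 95 CPM in activated platelet, 35.9, 32.8, 37.6 and 48.5 CPM in resting platelet, 33.7, 28.9, 41.2 and 49.0 CPM in thrombin and 34.8, 26.2, 40.7 and 42.8 CPM in vehicle libraries 1 to 4. The lowest activated platelet library lay above the highest library of all other groups, and the other 3 groups overlapped.

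The log2 fold change of Cd86 with activated platelets against vehicle was 1.16 ± 0.17 (SE, n = 4), a 2.24-fold difference with edgeR adjusted p = 0.000105. It was 2.10-fold higher than with resting platelets (adjusted p = 0.000499) and 2.12-fold higher than with thrombin (adjusted p = 0.000195). Without the number 1 libraries the log2 fold change against vehicle was 1.15 (adjusted p = 0.00701), against resting platelets 1.04 (adjusted p = 0.0248) and against thrombin 1.04 (adjusted p = 0.0119).

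Neither resting platelets nor thrombin gave a Cd86 difference from vehicle that passed, either without the block or with it. With the block the log2 fold changes were 0.10 (95% interval from -0.03 to 0.23) and 0.07 (from -0.05 to 0.20). The interaction was 0.99 ± 0.24 in log2 (edgeR adjusted p = 0.0173), so the thrombin effect on the log2 scale was larger with platelets than without. This call ended without the number 1 libraries (0.93, adjusted p = 0.202), without number 3 (0.96, adjusted p = 0.113) and with no filter on low counts (adjusted p = 0.0644). With the block its adjusted p was 1.38e-08.

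Platelet transcripts rose in the same libraries. The 12 platelet and megakaryocyte markers summed to 345 to 408 CPM in activated platelet, 212 to 252 CPM in resting platelet, 202 to 219 CPM in thrombin and 192 to 236 CPM in vehicle libraries. Pf4 alone had 180 to 279 CPM over all libraries, so it made up most of the sum in vehicle libraries. Against vehicle 11 of 12 markers passed as higher with activated platelets, where 12.2% of all tested genes did. With resting platelets 7 of 12 did, where 2.07% of all tested genes did. Red cell markers summed to 7.62 to 14.2 CPM in activated platelet, 0.752 to 2.98 CPM in resting platelet and at most 0.0714 CPM in vehicle libraries. The 2 tested red cell markers passed as higher with activated and with resting platelets, each against vehicle, beside the same shares of all genes. The part of RNA carried in with platelets in the levels of Cd86 and the class I genes was not tested.

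None of the 4 class I genes passed in any of the 6 comparisons in the edgeR fit of all libraries without the block. B2m, the light chain of every class I molecule (chromosome 2, 121978168 to 121983563, plus strand), had 1566, 1839, 1609.8 and 1667 CPM in activated platelet, 1475, 1666, 1558 and 1488 CPM in resting platelet, 1426, 1662, 1557 and 1563 CPM in thrombin and 1547, 1638, 1531 and 1535 CPM in vehicle libraries 1 to 4. Library 2 was the highest of every group, and the groups overlapped. The log2 fold change of B2m with activated platelets was 0.10 against vehicle (edgeR adjusted p = 0.291, and 0.012 with the block), higher in 4 of 4 numbers, 0.11 against resting platelets (adjusted p = 0.256, and 0.00518 with the block) and 0.11 against thrombin (adjusted p = 0.24, and 0.00557 with the block). With GC correction beside the block the values for B2m were 0.087 (adjusted p = 0.0184), 0.17 (8.87e-05) and 0.17 (7e-05) in the same order. Without activated platelet library 2 and without the block they were 0.046 (adjusted p = 0.642), 0.061 (0.578) and 0.056 (0.57). The interaction was 0.12 for B2m (adjusted p = 0.437, and 0.0305 with the block).

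H2-K1, a classical class I heavy chain (chromosome 17, 34214986 to 34219321, minus strand), had 926, 1141, 1059.5 and 1045 CPM in activated platelet, 833, 979, 939.7 and 963 CPM in resting platelet, 781, 961, 929 and 965 CPM in thrombin and 934, 1033, 938 and 984 CPM in vehicle libraries. The level with activated platelets was higher than with resting platelets and with thrombin within every number, and higher than vehicle in 3 of 4. The log2 fold change was 0.10 against vehicle (edgeR adjusted p = 0.381, and 0.02 with the block), 0.17 against resting platelets (adjusted p = 0.165, and 0.000399 with the block) and 0.20 against thrombin (adjusted p = 0.0738, and 3.41e-05 with the block). The last also passed by DESeq2 (adjusted p = 0.046), and by edgeR without the number 1 libraries (adjusted p = 0.0455) and without activated platelet library 1 (adjusted p = 0.0268). The interaction was 0.26 for H2-K1 (adjusted p = 0.142, and 0.000151 with the block).

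H2-D1, the other classical heavy chain (chromosome 17, 35482070 to 35486473, plus strand), had 1845, 2265, 2058 and 1914 CPM in activated platelet, 1700.2, 2071, 1930.3 and 1832 CPM in resting platelet, 1688, 2204, 1962 and 1857 CPM in thrombin and 1959, 2343, 1944 and 1940.0 CPM in vehicle libraries. Activated platelets did not differ from vehicle beyond the spread (log2 fold change -0.02, edgeR adjusted p = 0.911, and 0.659 with the block). The block gave adjusted p = 0.0159 for activated against resting platelets (log2 fold change 0.10) and 0.00871 for resting platelets against vehicle (-0.12), where the fit without it gave 0.518 and 0.537. Correcting for GC content beside the block ended both, with adjusted p = 0.135 and 0.167. The interaction was 0.19 for H2-D1 (adjusted p = 0.414, and 0.00256 with the block), and GC correction ended that call too (adjusted p = 0.153).

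Reads of H2-K1 and H2-D1 could be split between near-identical copies, so both are uncertain as single genes. Of the 50-base stretches of their longest GENCODE transcripts, 8.11% for H2-K1 and 14.3% for H2-D1 occur in another gene, and their counts were not whole in 16 of 16 libraries. Counts were also not whole for Cd74 in 9, for Tap1 in 7 and for B2m in 5 of the 16 libraries. No such stretch was shared by H2-Ab1, H2-Eb1, Cd74, Ciita, B2m or Cd86.

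Tap1 pumps peptides into the endoplasmic reticulum for class I loading (chromosome 17, 34406530 to 34416199, plus strand). It had 54.7, 72.3, 61.9 and 67.6 CPM in activated platelet, 58.0, 61.1, 64.5 and 65.9 CPM in resting platelet, 64.0, 69.5, 65.1 and 73.1 CPM in thrombin and 64.6, 75.3, 69.4 and 75.6 CPM in vehicle libraries. Within each number vehicle was the highest of the 4 treatments. Its log2 fold change was -0.15 with activated platelets (edgeR adjusted p = 0.172, and 0.00511 with the block) and -0.19 with resting platelets (adjusted p = 0.19, and 0.00304 with the block), each against vehicle. With GC correction beside the block the first stayed (adjusted p = 0.0159) and the second ended (adjusted p = 0.0751). Activated platelets against thrombin gave -0.14 for Tap1 with that correction, which passed (adjusted p = 0.0181). This was the only 1 of 19 alternatives to call it. Without the block the value was -0.08 (edgeR adjusted p = 0.478), and with the block alone -0.09 (adjusted p = 0.108).

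**Figure D2:**
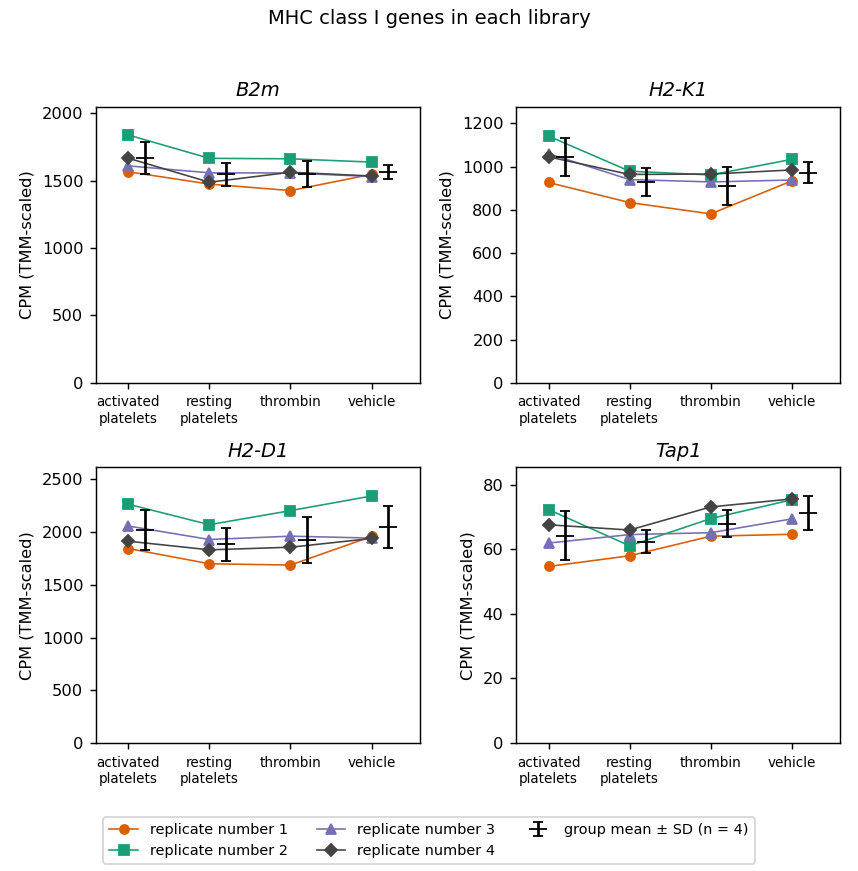
Level of each class I gene (vertical axis, TMM-scaled CPM from 0) in the 16 libraries by treatment, with a line for each replicate number and bars for the mean and SD of 4 libraries. B2m and H2-K1 stand highest with activated platelets in most numbers, and Tap1 stands highest in vehicle in all 4.

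Over the 10 genes, activated platelets against vehicle gave 1 called higher (Cd86) and 1 called lower (Ciita), where 25.8% of all 15610 tested genes were called, 12.2% higher and 13.6% lower. Their median log2 fold change was -0.0093, beside -0.0040 over all tested genes. Activated against resting platelets gave 1 higher, where 15.8% of all genes were called (7.34% higher and 8.49% lower), and activated platelets against thrombin gave 1 higher and 1 lower, where 25.4% were called (11.9% higher and 13.5% lower). The interaction gave 1 higher, where 9.93% of genes were called (4.56% higher and 5.37% lower). These comparisons share libraries with each other.

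Resting platelets against vehicle gave 0 calls by edgeR, DESeq2 and limma-voom, with 1 gene (Tap1) at an unadjusted p under 0.05, where edgeR called 3.39% of all genes (2.07% higher and 1.32% lower). Thrombin against vehicle gave 0 by the same 3 tools and 0 at an unadjusted p under 0.05, where 0.288% were called (0.0897% higher and 0.199% lower). With the replicate block 5 of the 10 genes were called for activated platelets against vehicle, where 42.5% of all genes were called, 5 against resting platelets (34.5%) and 4 against thrombin (41.6%). For resting platelets against vehicle it called 3, namely Ciita, H2-D1 and Tap1, all lower (21.5% of all genes), for thrombin against vehicle 0 (8.23%) and for the interaction 5 (29.1%). With GC correction beside the block Ciita alone of these 3 stayed for resting platelets against vehicle (adjusted p = 0.0017).

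**Figure D3:**
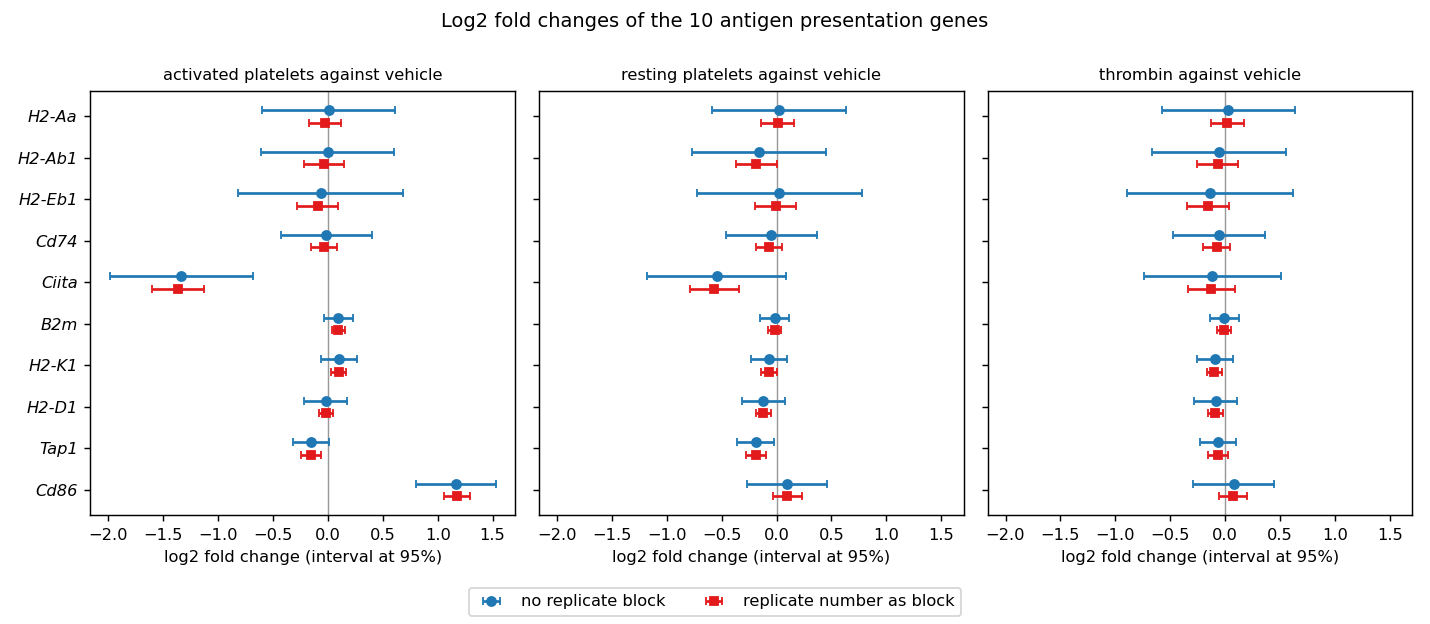
Log2 fold change (horizontal axis) of each of the 10 genes for activated platelets, resting platelets and thrombin, each against vehicle, with 95% intervals without and with the replicate block. Cd86 at 1.16 and Ciita at -1.33 stand apart from the line at 0 with activated platelets, and the intervals with the block are the narrower ones.

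Per length, transcript levels of the 10 genes spanned a wide range in every group. In vehicle B2m led at 1821 ± 59.1 CPM per kilobase of merged exons (SD, n = 4), followed by H2-D1 at 1179 ± 114, H2-K1 at 446 ± 21.4 and Cd74 at 77.4 ± 9.21. Then came Tap1 at 24.1 ± 1.78, H2-Aa at 20.3 ± 4.75, H2-Ab1 at 18.0 ± 3.73, Cd86 at 10.3 ± 2.11, H2-Eb1 at 6.99 ± 1.85 and Ciita at 1.01 ± 0.197 CPM per kilobase. The libraries of Tap1 and H2-Aa overlapped, as did those of H2-Aa and H2-Ab1 and of Cd86 and H2-Eb1, so these neighbours have no set order. With activated platelets Cd86 reached 23.1 ± 3.09 CPM per kilobase, next below Cd74 and overlapping Tap1 at 21.7 ± 2.57, and Ciita was last at 0.401 ± 0.180.

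**Figure D4:**
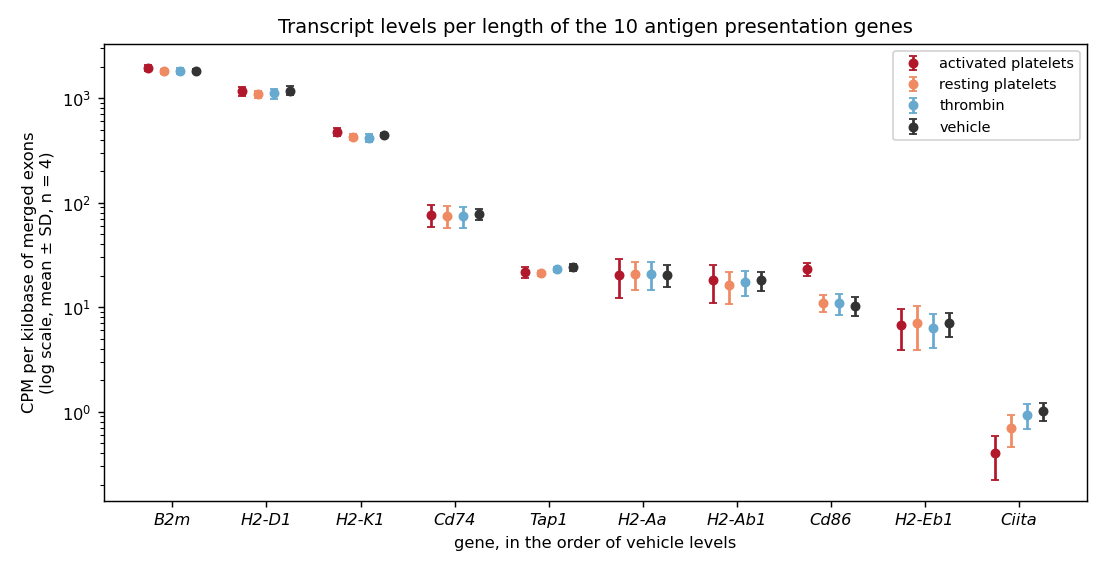
Level per length (vertical axis, CPM per kilobase of merged exons, log scale) of the 10 genes in the 4 treatments, ordered by their vehicle level, as mean and SD of 4 libraries. The treatments lie on each other for most genes, with Cd86 higher and Ciita lower with activated platelets.

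The gene outside the 10 whose pattern was most like each one was found by the smallest root mean square difference of centred log2 CPM over the 16 libraries, among 15600 genes. Kcnj10, a potassium channel gene, was nearest to H2-Aa (0.169, where H2-Aa itself has an SD of 0.40) and to H2-Eb1 (0.182), Plpp7 was nearest to H2-Ab1 (0.22) and Stab2, a scavenger receptor gene, to Ciita (0.233). Within the 10, H2-Aa and H2-Ab1 were nearer to each other, at 0.110. Itprip was nearest to Cd86 (0.145) and Srp14, of the signal recognition particle, to B2m (0.0417). The nearest to H2-K1, H2-D1 and Tap1 were the related class I genes H2-Q4 (0.0531), H2-Q1 (0.0321) and H2-T22 (0.0661). These share 22%, 16.1% and 35.8% of their 50-base stretches with another gene. H2-Q1 is also the gene with which H2-D1 shares the most stretches, 7.40% of those of H2-D1. The part of shared reads in these distances was not tested. The nearest to Cd74 was Mir5107 (0.107), which overlaps it on the same strand.

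Other genes of antigen presentation were read from 7 lists, again for activated platelets against vehicle. In this comparison 12.2% of all tested genes were higher and 13.6% lower, and with the block 42.5% were called. Each list count below is to be read beside these shares. Of the costimulatory and coinhibitory ligands 4 of 9 tested genes were higher and 0 lower (Pdcd1lg2, Tnfsf4 and Cd70 were not tested), with a median log2 fold change of 0.06, where 12.2% of all genes were higher. With the block 4 were higher and 2 lower, and 2 calls were left without the number 1 libraries and 1 (Cd80) without number 4. Cd80, the second ligand of CD28, had 33.8, 20.8, 28.7 and 37.7 CPM in activated platelet libraries 1 to 4, against 19.8, 14.2, 20.2 and 18.4 CPM in vehicle, and rose 1.66-fold (edgeR adjusted p = 0.00356, and 0.0401 without the number 1 libraries). With resting platelets Cd80 had 22.9, 17.3, 18.7 and 21.7 CPM and did not pass against vehicle (adjusted p = 0.701). Lgals9, which encodes galectin-9, rose 1.17-fold (adjusted p = 0.00869, and 0.0504 without number 4), and the other called genes, named after their values were seen, were Cd276 (1.32-fold, adjusted p = 0.0174) and Icosl (1.28-fold, adjusted p = 0.0443). Cd276 was called in 14 of 19 alternatives, with adjusted p up to 0.122 (without number 4), and Icosl in 8 of 19, with adjusted p up to 0.232 (without number 2).

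Of 13 genes of class II loading, processing and turnover 0 rose and 1 fell, with a median log2 fold change of -0.02. The gene that fell was Marchf1, a ubiquitin ligase that removes class II and CD86 proteins from the surface. It had 56.7, 69.5, 69.4 and 60.9 CPM in activated platelet libraries, against 78.9, 80.7, 96.7 and 80.6 CPM in vehicle, with no overlap. Its log2 fold change was -0.39 ± 0.10 (SE, n = 4, edgeR adjusted p = 0.0105), and it did not pass without the number 1 libraries (-0.36, adjusted p = 0.0653) or without number 4 (adjusted p = 0.0592). With the block 2 genes of this list were higher and 2 lower. Named after their values were seen, the lysosomal proteases Ctsl (log2 fold change 0.40, adjusted p = 0.15 without and 1.12e-09 with the block) and Ctss (0.13, 0.536 and 0.00128) were higher and Ctsb (-0.12, 0.391 and 0.000742) was lower beside Marchf1.

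Of 8 MHC transcription factors 0 rose and Nlrc5, the transactivator of class I genes, fell. It had 47.0, 57.9, 52.3 and 51.5 CPM in activated platelet, 60.5, 54.6, 59.6 and 57.2 CPM in resting platelet, 59.0, 62.8, 62.5 and 65.2 CPM in thrombin and 64.6, 69.0, 72.2 and 65.8 CPM in vehicle libraries. Its log2 fold change against vehicle was -0.38 with activated platelets (edgeR adjusted p = 0.000133, and 0.00181 without the number 1 libraries) and -0.23 with resting platelets (adjusted p = 0.0422). The median log2 fold change of that list with activated platelets was 0.05, and with the block 3 of its genes were higher and 1 lower.

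Of 11 non-classical class I and class I-like genes 4 fell and 0 rose, with a median log2 fold change of -0.20, where 13.6% of all genes were lower. With the block 5 fell, and 2 calls were left without number 3 or without activated platelet library 1 and 1 without number 4. H2-T24 had 12.2, 19.5, 13.8 and 13.8 CPM in activated platelet libraries, against 25.2, 24.8, 27.2 and 22.9 CPM in vehicle, and was 1.69-fold lower (edgeR adjusted p = 0.000653). H2-T22 was 1.17-fold lower (adjusted p = 0.0065), and so were, named after their values were seen, H2-M3 (1.28-fold, adjusted p = 0.0139) and Mr1, which presents vitamin B metabolites (1.16-fold, adjusted p = 0.0386). The call of H2-T22 ended without number 3 (adjusted p = 0.0633) or number 4 (0.0667). H2-M3 was called in 16 of 19 alternatives and not without number 3 (adjusted p = 0.0848), number 4 (0.0957) or activated platelet library 1 (0.0518), and Mr1 was called in 10 of 19, with adjusted p up to 0.155. H2-T genes share sequence, so H2-T22 and H2-T24 are uncertain as single genes.

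Of 7 class I peptide loading genes 1 fell, Tapbpl, an editor of class I peptides (log2 fold change -0.17, edgeR adjusted p = 0.0431), with a list median log2 fold change of 0.01 and 2 lower with the block. Tapbpl was called in 8 of 19 alternatives, with adjusted p up to 0.263. Of 8 proteasome subunit genes Psmb5, the constitutive catalytic subunit that Psmb8 replaces in the immunoproteasome, rose 1.19-fold (adjusted p = 0.0108) and 0 fell, with a list median log2 fold change of -0.02. That call ended without number 1 (adjusted p = 0.0941) or number 3 (0.0915). With the block 3 subunits were higher and 2 lower. Named after their values were seen, the constitutive subunits Psmb6 (log2 fold change 0.16, adjusted p = 0.00251 with the block) and Psmb7 (0.11, adjusted p = 0.0203) were higher beside Psmb5, and the immunoproteasome subunits Psmb9 (-0.16, adjusted p = 0.0364) and Psmb10 (-0.18, adjusted p = 0.00446) were lower. Without the block adjusted p was 0.093, 0.0793, 0.335 and 0.0516 for these 4 genes. The other subunits of the list, Psmb8, Psme1 and Psme2, were called neither with the block nor without it.

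In the interferon gamma receptor pathway 2 of 10 genes were higher and 2 lower, where 12.2% of all genes were higher and 13.6% lower. The median log2 fold change was -0.06. With the block 2 were higher and 3 lower, where 42.5% of all genes were called. Ifngr2 had 225, 249.6, 250.2 and 231 CPM in activated platelet libraries, against 177, 188, 193 and 177 CPM in vehicle, and rose by 0.38 in log2 (edgeR adjusted p = 2.36e-05). The gene of the other receptor chain, Ifngr1, had 149.8, 164, 169 and 152 CPM in activated platelet libraries, against 196, 192, 228 and 192 CPM in vehicle, a log2 fold change of -0.35 (adjusted p = 0.00223). Jak2, the kinase bound to IFNGR2, rose by 0.26 (adjusted p = 0.00214), and Irf1, a transcription factor that the pathway induces, fell by 0.35 (adjusted p = 0.006). The call of Irf1 ended without number 1 (adjusted p = 0.0803) or number 4 (0.0534).

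**Figure D5:**
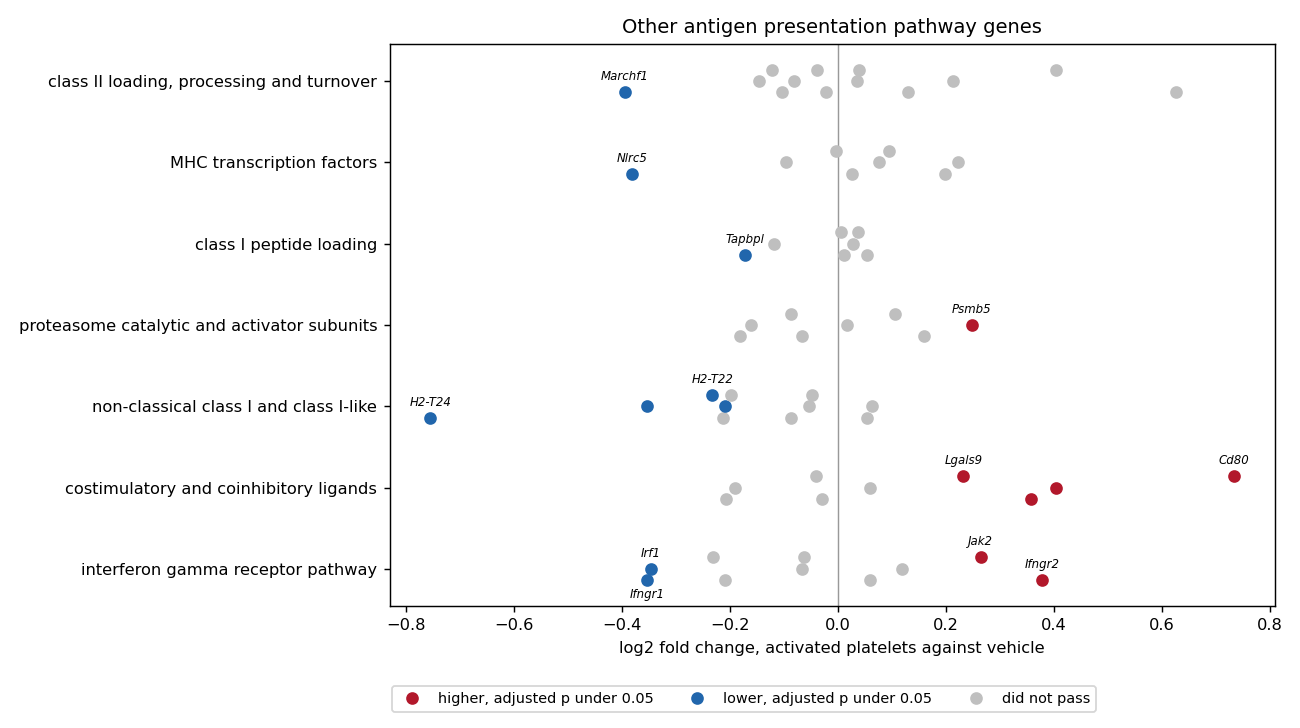
Log2 fold change of activated platelets against vehicle (horizontal axis) for the tested genes of the 7 lists (rows), each point 1 gene, coloured by whether it passed. Cd80 lies farthest to the right among called genes at 0.73 and H2-T24 farthest to the left at -0.75.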

How the data were processed

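Poly(A) RNA-seq was made with a strand-preserving kit. The authors deposited estimated counts per gene with no normalization, with GRCm39 coordinates. The submitters' processing notes name STAR 2.7.2b, featureCounts 1.6.4 (Subread), cutadapt 2.5 and the builds GRCm39 and mm10, per the labels without roles. The settings for strand and multiple mapping were not given in the sources used here. Of the deposited counts above 0, 25.5% were not whole, where whole counts had been assumed, and rounding changed 0.00734% of counts. The merged exon lengths the authors deposited, in bases, gave the levels per kilobase.

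Libraries were grouped by their labels. Genes were filtered with filterByExpr by group, scaled by TMM and tested in edgeR 4.0.16 (robust quasi-likelihood, R 4.3.3) on all 16 libraries as 4 groups, two-sided, with Benjamini-Hochberg adjustment over 15610 genes and a threshold of 0.05. Genes rise, fall or are called only past it. Intervals are 95%. The fit was tested on simulated counts that held no effect of the replicate number, so that test does not cover the pairing of these libraries. Alternatives were a replicate block, that block with GC correction (lowess span 0.3), DESeq2 1.42.0, limma-voom (limma 3.58.1), RLE scaling, no filter, the compared groups only, and leaving out each library or number.

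The numbers pair the libraries. After group means were removed, 24 same-number correlations lay between 0.29 and 0.617 and the other 72 between -0.436 and 0.253. For 16 of 16 libraries the best match had its own number. The data give this pairing, and the labels leave the meaning of a number unstated.

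The genes and lists were chosen with earlier results of these data known. Named were the 10 genes, up to 2 rising and 2 falling genes of each list with the smallest p for activated platelets against vehicle, and the gene nearest to each of the 10.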

Additional observations from a re-analysis of the deposited data

Results flagged for a closer look

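The vehicle library with number 2 stood far above the other 3 vehicle libraries for a pair of class I genes. B2m had 1638 CPM there, against 1531 to 1547 CPM in the others, and H2-D1 had 2343 CPM, against 1940.0 to 1959 CPM. These were 2 of the 40 gene and group sets examined, and chance flags about 1 in 20. For both genes number 2 was also the highest library of every other group.

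The effect of thrombin on Cd86 differed between cultures with and without platelets, by 0.99 in log2 (edgeR adjusted p = 0.0173), which is the interaction given above.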

How the results depend on the processing

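Cd86 and Ciita were called for activated platelets against vehicle in each of the 19 alternatives, with adjusted p up to 0.00701 and 0.0452, and no result changed direction past the threshold. The replicate block moved the count of called antigen presentation genes to 5 for activated platelets against vehicle (2 without it), 5 against resting platelets (1), 4 against thrombin (2), 3 for resting platelets against vehicle (0) and 5 for the interaction (1). The block with GC correction gave 5, 4, 5, 1 and 4, where 46%, 35.5%, 44.7%, 18.2% and 23.9% of 14425 genes were called. Without a filter on low counts the interaction had 0. Leaving out a library or a number gave 2 for activated platelets against vehicle in every case, 1 to 2 against resting platelets, 1 to 3 against thrombin, 0 for both resting platelets and thrombin against vehicle, and 0 to 1 for the interaction. For the 7 lists, leaving out a library or number gave 0 to 2 calls for class II loading, 1 to 2 for the transcription factors, 0 to 1 for class I loading, 0 to 3 for the proteasome, 1 to 4 for the non-classical genes, 1 to 4 for the costimulatory ligands and 3 to 4 for the interferon gamma pathway. Other settings gave 1 to 4, 1 to 4, 0 to 2, 1 to 5, 3 to 5, 3 to 6 and 4 to 6, and these list counts were added after seeing the data. The causes of these shifts were not tested. Log2 fold changes went with GC content across genes (Spearman rho = -0.05, -0.343 and -0.447 for activated platelets, resting platelets and thrombin against vehicle, 0.208 and 0.176 for activated platelets against resting platelets and thrombin, and 0.387 for the interaction). The low counts of Ciita limit its precision.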

Other observations

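Cd274, the gene of the coinhibitory ligand PD-L1, was chosen after its values were seen. It had 55.4, 83.3, 60.3 and 47.5 CPM in activated platelet, 59.4, 85.0, 68.9 and 49.3 CPM in resting platelet, 74.1, 118, 85.3 and 62.8 CPM in thrombin and 63.8, 99.1, 64.6 and 54.2 CPM in vehicle libraries 1 to 4. Within each number the thrombin library was the highest and the activated platelet library the lowest. The log2 fold change of activated platelets against vehicle was -0.19 and did not pass (edgeR adjusted p = 0.598), but passed with the replicate block (adjusted p = 0.000574). Thrombin against vehicle gave 0.28 (adjusted p = 0.708, and 0.00038 with the block), higher in 4 of 4 numbers. In that comparison the block called 8.23% of all genes, and the block with GC correction 2.82% of 14425. No value of Cd274 is given for the fit with GC correction.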
